A study of Mus musculus with 19 samples.

Results

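The comparison described here set 3 ovary arrays of gestation day 18 (gd18) against 3 ovary arrays of gestation day 14 (gd14), that is 6 of the 19 arrays of a mouse developmental series, chosen by their titles alone. All genes on the array were examined. Every animal at both stages was a wild-type female of CD-1, an outbred strain, with no treatment. The labels place gd14 at Theiler stage 22 and gd18 at Theiler stage 26, and matings were limited to a window of 2 hours. Whole ovaries were excised and snap frozen. Their RNA went through 2 rounds of amplification and biotin labelling before hybridization to the Affymetrix Mouse430_2 array, which reads most genes through 1 or more probe sets. The gd14 samples are labelled as pools of 3 and the gd18 samples as unpooled. The design text instead describes 1 animal's pair of ovaries per sample, with every animal here from a different dam. Pooling, where it was done, would therefore have been done at gd14 only and cannot be told apart from stage.

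Between these days the germ cells of the fetal ovary pass through most of meiotic prophase. They leave mitosis and begin meiosis under the control of retinoic acid and Stra8, pair and recombine their chromosomes along the synaptonemal complex, and then approach the long dictyate arrest, while genes of the growing oocyte come on and part of the germ cells are lost. Pregranulosa cells, stroma and vessels surround the germ cells and later enclose them in primordial follicles. A whole ovary holds all of these cells, so fewer cells of a type and less RNA per cell of that type cannot be told apart in any value below.

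Values are signals on the scale of the deposited table, given for gd14 replicates 10, 11 and 12 and gd18 replicates 4, 5 and 6, always in that order. Differences are log2 of gd18 over gd14 after adding 31 to each signal, given ± SE from limma, and a gene is called higher or lower where its adjusted p is under 0.05. The share of probe sets above the median signal of 116.05 was 48.8% to 51.2% on the 6 arrays, and arrays correlated at 0.967 to 0.976 with others of their stage and at 0.936 to 0.944 with those of the other stage. Within a stage, probe sets had a median SD of 0.20 at gd14 and 0.21 at gd18 on the log2 scale. The ratio of 3′ to 5′ Gapdh signal, a sign of RNA quality and of amplification, was 4.09 to 4.96 at gd14 and 4.85 to 5.20 at gd18, so the ranges overlapped. Arrays of the other stages entered the estimate of spread and the filter that chose which probe sets were tested, and gd12 and postnatal day 2 means are given beside some results. Among these arrays, gd16 replicate 7, labelled female, had an Xist signal of 44.79 against 11306 to 18576 on the other 17 ovary arrays. The Y-linked Eif2s3y read 40.2 there and 29.8 and 33.1 on the other gd16 arrays, all under the median signal. Of other Y-linked genes, Kdm5d read 64.4 there and 84.4 on gd18 replicate 4. Uty read 29.4 there and 45.7 on gd12 replicate 14.

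Of 12592 genes tested, 1949 (15.5%) were called, 1063 higher (8.44%) and 886 lower (7.04%) at gd18. The median difference over all genes was 0.06, and in 4580 genes (36.4%) the 3 arrays of gd18 all lay above or all below those of gd14. Counted as probe sets, 6.59% were higher and 6.21% lower, 12.8% in all. With a fold threshold of 2 added, 692 genes (5.5%) were called, 420 higher (3.34%) and 272 lower (2.16%). The split depended on scaling: higher genes were 54.5% of the calls on the deposited scale, and 37.5% (710 higher and 1181 lower) when each array was scaled to its median. Without gd14 replicate 12 the calls fell to 1271, of which 642 were higher, and without the gd16 arrays they numbered 2085.

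**Figure D1:**
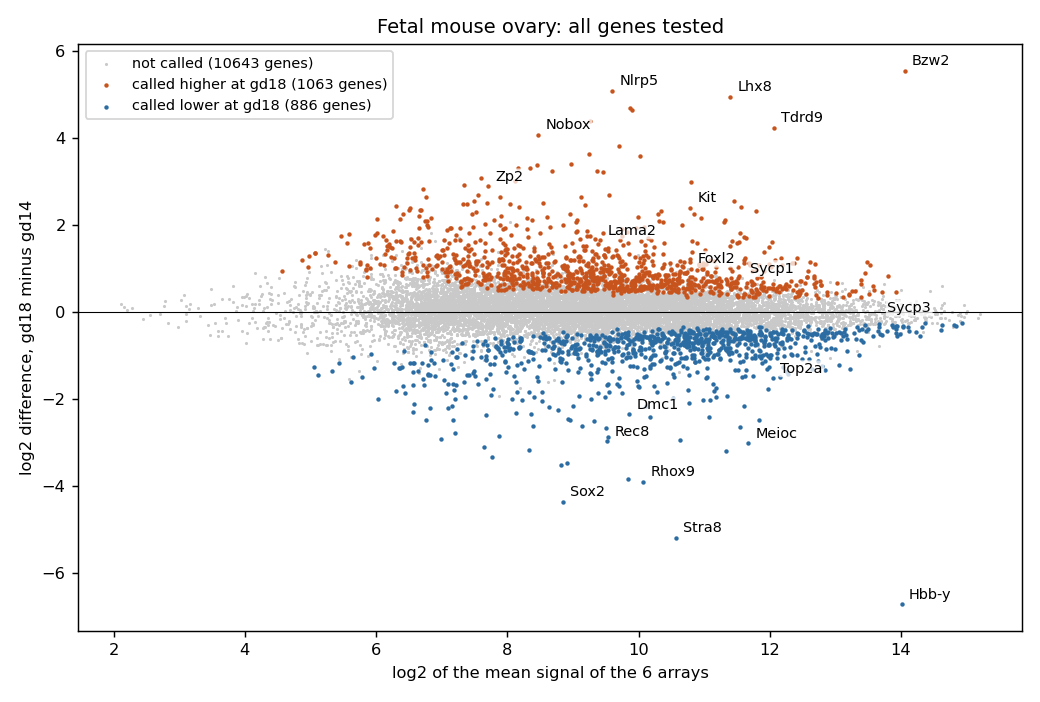
Each point is 1 of the 12592 genes tested, with the log2 of its mean signal over the 6 arrays on the x axis and the log2 difference of gd18 over gd14 on the y axis; orange and blue points are the 1063 and 886 genes called higher and lower. Bzw2, Nlrp5 and Lhx8 lie highest and Hbb-y and Stra8 lowest, while Sycp3 lies near 0.

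Of the 10 tested genes of meiotic entry, 4 were lower at gd18 (7.04% of all genes tested were), none was higher (8.44% were) and 6 were not called. Stra8, the retinoic-acid-induced gatekeeper of meiotic entry, read 2189, 3199.7 and 3583 at gd14 and 83.0, 73.0 and 13.1 at gd18. All 3 gd18 arrays lay far below all 3 gd14 arrays, a difference of -5.20 ± 0.47, adjusted p = 9.96e-07, and the gd18 mean of 56.4 was close to the gd12 mean of 67.9 ± 62.9 (SD, n = 3). Meioc, which with Ythdc2 keeps the meiotic programme running, read 6957, 4555 and 5921 and 433, 793 and 911, a difference of -3.02 ± 0.43 (adjusted p = 0.000134). Its gd18 mean of 712 was still well above its gd12 mean of 85.9. Rec8, the meiotic cohesin subunit, went from 911, 1339 and 1763 to 132, 151 and 129.5 (-2.98 ± 0.41, adjusted p = 8.26e-05). The median of the list was -0.61. The fourth lower gene, Mga, a repressor partner of Max, differed by -0.38 with an adjusted p of 0.0494 and lost the call under 14 of 19 alternatives. The RNA helicase Ythdc2 (-0.13, adjusted p = 0.771) and Max (-0.10, adjusted p = 0.859) were not called.

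The synaptonemal complex and the chromosome axis did not move as a block: 9 of 15 tested genes were lower, 1 was higher and 5 were not called. Over all genes tested, 7.04% were lower and 8.44% higher. Hormad2, an axis protein that marks unsynapsed chromosomes, read 257, 227 and 311 at gd14 and 11.5, 8.55 and 53.3 at gd18 (-2.49 ± 0.42, adjusted p = 0.000612). Tex12, of the central element, fell from 4148, 3406 and 3482 to 909, 1274 and 684 (-1.95 ± 0.24, adjusted p = 3.58e-05), and Stag3, a meiotic cohesin subunit, from 4543, 3793 and 3996 to 942, 1571 and 776 (-1.94 ± 0.26, adjusted p = 7.12e-05). The groups did not overlap for any of the 3. The central element genes Syce2 (-1.32, adjusted p = 0.000352) and Syce1 (-1.26, adjusted p = 0.00464), the axis gene Hormad1 (-1.27, adjusted p = 0.00831) and the lateral element gene Sycp2 (-1.02, adjusted p = 0.011) fell less. Sycp3, the other main lateral element protein, read 16380.1, 10931 and 13893 at gd14 and 12093, 14792 and 10685 at gd18, overlapping values that differed by -0.13 ± 0.33 (adjusted p = 0.854). Sycp1, the transverse filament that zips the axes together, read 3599, 1473 and 1843 and 3144, 5273 and 3059, also overlapping (0.78 ± 0.32, adjusted p = 0.119), and gd14 replicate 10 was the high array of its stage. The cohesin subunit Smc1b was not called (-0.58, adjusted p = 0.434). Sycp2l, an oocyte relative of Sycp2, was the higher gene, from 40.0, 74.2 and 40.4 to 337, 185 and 152 (1.59 ± 0.49, adjusted p = 0.0399), a call lost under 10 of 19 alternatives.

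Of 22 tested genes of recombination and crossover, 10 were lower (7.04% of all genes were), 1 was higher (8.44% were) and 11 were not called. Dmc1, the meiotic recombinase, read 1742, 1405 and 1536 at gd14 and 194, 379 and 294 at gd18 (-2.35 ± 0.26, adjusted p = 8.95e-06), and both of its probe sets were called lower. Prdm9, which marks hotspots for breaks, read 559.6, 435 and 462 and 66.2, 97.3 and 56.9 (-2.32 ± 0.30, adjusted p = 4.65e-05). Neither gene's groups overlapped. Also lower were Mei4 (-1.54) and Mei1 (-1.12) of break formation, Meiob (-1.55), which binds single-stranded DNA, Hsf2bp (-1.37) and Brca2 (-1.04), which load recombinase, Fignl1 (-1.49), Tex11 (-1.18) and Brca1 (-0.68), with adjusted p from 5.97e-06 to 0.0132. Spo11, the enzyme that cuts the breaks, ranged from 401.6 to 968.9 at gd14 and from 300.8 to 454.9 at gd18 and was not called (-0.70, adjusted p = 0.186). Among genes that stabilise or mature crossovers, Msh4 (-0.04, adjusted p = 0.937), Ccnb1ip1 (-0.08, adjusted p = 0.857) and Cntd1 (0.17, adjusted p = 0.311) overlapped between stages. The probe set that stands for Cntd1 averaged 12014 at gd14 and already 10709 at gd12. Dimmer probe sets of Cntd1 differed by -0.37 and -0.52 and were not called (adjusted p = 0.481 and 0.0987), the latter with separate groups. Msh5, the partner of Msh4, was not called on the probe set that stands for the gene here (-0.78, adjusted p = 0.209), whose groups were separate, while its other probe set was called lower (-2.05, adjusted p = 0.00585), from 271, 169 and 178 to 18.0, 58.3 and 9.46. Mlh3, the endonuclease of crossover resolution, was the 1 gene called higher, from 460.1, 399.7 and 369 to 627, 897 and 567 (0.70 ± 0.16, adjusted p = 0.00781), a call lost without gd18 replicate 5. Without gd14 replicate 10 or gd18 replicate 6, 2 genes of this list were called higher. Tex15, needed for repair of breaks, read 7104, 5492 and 6831 and 8233, 12256 and 6961 and was not called (adjusted p = 0.305).

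The genes that tie telomeres to the nuclear envelope were lower in 5 of 6 cases, beside 7.04% of all genes. Majin read 1759, 1260.1 and 1094 at gd14 and 267, 452 and 345 at gd18 (-1.86 ± 0.30, adjusted p = 0.000421), and Terb2 read 2117, 2087 and 2032 and 664, 1007 and 412 (-1.63 ± 0.30, adjusted p = 0.0013). Terf1, a telomere repeat binding factor, fell by 1.06 on its brightest probe set (adjusted p = 0.00344), with its other 2 probe sets also called lower (-1.41 and -0.69), Sun1 of the envelope by 0.43 (adjusted p = 0.0151), and Terb1 differed by -0.99 (adjusted p = 0.0477), a call lost under 13 of 19 alternatives. The count was 3 without gd14 replicate 11 or without gd18 replicate 4.

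**Figure D2:**
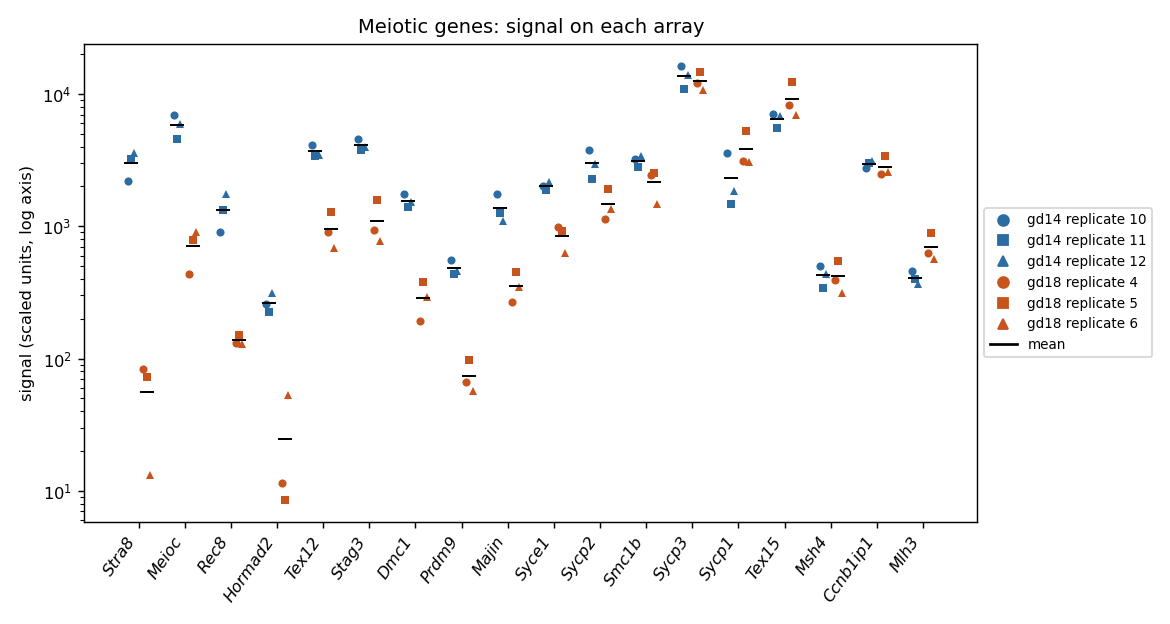
Signal of 18 meiotic genes on each of the 6 arrays (log axis; marker shapes are replicates, black lines are means), with gd14 in blue and gd18 in orange. The groups are far apart for Stra8, Meioc, Rec8, Hormad2 and Prdm9 and overlap for Sycp3, Sycp1, Tex15, Msh4 and Ccnb1ip1.

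Ddx4, Dazl and Slc25a31, used here as germ cell markers, had lower signals on every gd18 array than on any gd14 array and were not called. Their summed signal was 29676, 29967 and 36193 at gd14 and 15414, 21446 and 13652 at gd18, a ratio of means of 0.527. Taken singly, Ddx4 (-0.89, adjusted p = 0.137), Dazl (-1.05, adjusted p = 0.0984) and Slc25a31 (-0.89, adjusted p = 0.0929) each stood apart between the stages. The wider list did overlap: over the 26 tested germ cell and piRNA genes the summed signal was 58418 to 63985 at gd14 and 44606 to 76811 at gd18, with 7 genes higher and 4 lower. The 4 meiotic lists together held 52 different tested genes, of which 36 did not overlap between stages, beside 36.4% of all genes. Of the 52, 27 were called lower and 2 higher, beside 7.04% and 8.44% of all genes. The part of germ cell number in these differences was not tested. At the other stages, 22 of the 27 had a gd14 mean over 2 times the gd12 mean, 16 still had a gd18 mean over 2 times the gd12 mean, and 22 had a lower mean at postnatal day 2 than at gd18.

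Promoters that hold the hexamer CACGTG are shown for 3 genes from these lists: Tex12 and Stag3, which fell, and Sycp3, which was not called. Their proteins act together on the synapsing chromosome axes. Most promoters of these lists lack the hexamer, among them those of Stra8, Rec8 and Dmc1, so the 3 do not stand for the lists. Each is the RefSeq sequence of the 250 bases before the first listed start, on GRCm38.p6, written 5′ to 3′ on the gene's strand, with the hexamer CACGTG in capitals. CACGTG is an E box, the kind of site read by basic helix-loop-helix factors, and it is the same on both strands.
Tex12 (chr9:50561269-50561518, minus strand): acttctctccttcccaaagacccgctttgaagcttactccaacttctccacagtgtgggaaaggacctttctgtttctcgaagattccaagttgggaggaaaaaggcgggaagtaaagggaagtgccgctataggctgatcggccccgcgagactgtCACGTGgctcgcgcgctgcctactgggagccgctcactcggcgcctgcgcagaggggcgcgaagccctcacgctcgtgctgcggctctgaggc
Stag3 (chr5:138280259-138280508, plus strand): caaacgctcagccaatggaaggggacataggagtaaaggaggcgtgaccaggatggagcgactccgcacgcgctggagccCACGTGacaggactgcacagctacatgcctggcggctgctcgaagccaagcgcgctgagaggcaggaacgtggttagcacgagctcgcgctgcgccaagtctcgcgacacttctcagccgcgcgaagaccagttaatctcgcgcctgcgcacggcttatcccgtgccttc
Sycp3 (chr10:88459337-88459586, plus strand): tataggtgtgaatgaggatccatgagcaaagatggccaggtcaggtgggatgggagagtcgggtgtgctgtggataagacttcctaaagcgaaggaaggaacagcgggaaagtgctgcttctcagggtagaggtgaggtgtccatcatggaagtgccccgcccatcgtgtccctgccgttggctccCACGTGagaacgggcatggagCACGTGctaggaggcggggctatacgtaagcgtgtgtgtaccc
The hexamer lay 93 bases before the start of Tex12, 170 before that of Stag3, and at 64 and 43 bases before that of Sycp3. It was in 4 of the 22 lower meiotic genes with a promoter in the table (18.2%) and in 5 of the 20 not called, beside 865 of 10175 genes tested (8.5%) and 1634 of all 27025 promoters (6.0%). Genes that fell and genes not called both held it, and a match describes letters and not a bound site. TAATTA and TAATTG, the core letters of many homeodomain sites, were in none of the 22 and in 1 of the 20.

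Of 24 tested genes of pluripotency and of primordial germ cells, 9 were lower and 3 higher, beside 7.04% and 8.44% of all genes. Sox2, a core pluripotency factor, read 602, 1007 and 1123 at gd14 and 17.4, 3.54 and 20.1 at gd18 (-4.37 ± 0.60, adjusted p = 8.46e-05). Sall4, which maintains the germ line stem state, fell from 949.98, 1557 and 1479 to 165, 187 and 109 on 1 probe set (-2.87 ± 0.27, adjusted p = 1.62e-06), while its second, dimmer probe set was not called. Pou5f1 (Oct4) read 126, 235 and 276 and 75.1, 29.6 and 46.5 (-1.56 ± 0.33, adjusted p = 0.00377). None of these groups overlapped, and gd14 replicate 10 was the lowest gd14 array for all 3. The specification factors Tfap2c (-2.63) and Prdm14 (-2.12), the RNA-binding protein Lin28a (-2.48), Dppa5a (-2.49) and Dppa2 (-1.86) were also lower, with adjusted p from 4.03e-07 to 0.00808. Dppa4 (-0.44, adjusted p = 0.486) and Zfp42 (-0.15, adjusted p = 0.737) overlapped. Against that direction, Dppa3 (Stella), a maternal factor as well as a germ cell marker, rose from 262, 329 and 537 to 1508, 1891 and 918 (1.85 ± 0.33, adjusted p = 0.000999), and Trim71, a stem cell RNA-binding ubiquitin ligase, rose from 406, 382 and 342 to 1245, 1276 and 813 (1.46 ± 0.25, adjusted p = 0.000756). The third, Klf4 (0.91, adjusted p = 0.0294), lost its call under 6 of 19 alternatives. Several of the falls did not last to postnatal day 2. There the means of Dppa5a (7325), Lin28a (1074) and Pou5f1 (286) were above their gd14 means. Those of Sall4 (675), Tfap2c (372) and Dppa2 (70.3) lay between their gd18 and gd14 means. Sox2 (11.0) and Prdm14 (12.4) stayed below their gd18 means.

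The 4 tested Rhox genes, an X-linked homeobox cluster expressed in reproductive tissue, were all lower. Rhox9 read 1440.3, 2699 and 1984 at gd14 and 83.7, 125 and 104 at gd18 (-3.90 ± 0.26, adjusted p = 2.95e-08), Rhox6 read 629, 950.5 and 1132 and 29.2, 41.7 and 93.1 (-3.48 ± 0.27, adjusted p = 2.54e-07), and Rhox5 read 2087, 4092 and 4823 and 639.5, 708 and 533 (-2.41 ± 0.23, adjusted p = 1.52e-06). Each gd18 array was below each gd14 array in all 3 genes. Rhox13 fell from a higher level, 6289 ± 1934 at gd14 and 1772 ± 265 at gd18 (SD, n = 3; -1.78 ± 0.45, adjusted p = 0.0129). Its gd12 mean was 149, so it was high at gd14 and lower on both sides, while Rhox9, Rhox6 and Rhox5 already stood at 2400.2, 1155 and 3998 at gd12. In the pluripotency and Rhox lists together, gd14 replicate 10 was the lowest gd14 array in 10 of the 13 lower genes. The gd14 mean was already below the gd12 mean in 11 of the 13.

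Genes of the piRNA pathway and of general germ cell identity went both ways, 7 of 26 higher and 4 lower. Over all genes the shares were 8.44% and 7.04%. Tdrd9, a helicase of the piRNA machinery, read 401, 383 and 385 at gd14 and 7493, 10629.6 and 6275 at gd18 (4.24 ± 0.24, adjusted p = 2.59e-09), among the largest rises of any gene. Its gd14 arrays were nearly equal and its gd18 arrays all far above them. Gtsf1, a piRNA cofactor, rose from 1866, 1370.2 and 988 to 6357, 6288 and 2258 (1.70 ± 0.39, adjusted p = 0.00695), and Piwil2, a PIWI protein, from 1507, 1927 and 2128 to 4885, 5436 and 2913 (1.20 ± 0.26, adjusted p = 0.00464). Tdrd5 (1.38), the translation regulator Cpeb1 (1.23) and the piRNA nuclease Pld6 (0.91) rose too, with adjusted p of 0.0015, 0.00472 and 0.0105. The remaining rise, Piwil1 (1.16, adjusted p = 0.0384), lost its call under 8 of 19 alternatives. In the other direction went Rnf17, a Tudor protein (3264 ± 466 at gd14 and 779 ± 164 at gd18; -2.03 ± 0.29, adjusted p = 0.000146), Tex101 (-2.03, adjusted p = 0.0077), Tex14, of the bridges that join germ cells (-1.82, adjusted p = 0.000602), and Gpat2 (-1.34, adjusted p = 0.00764). Mael (0.63, adjusted p = 0.248) and Mov10l1 (0.83, adjusted p = 0.0535), also piRNA genes, were not called.

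Transcription factors of the oocyte showed the highest median of any list, 2.19 over 9 tested genes, with 6 higher and 1 lower. Over all genes, 8.44% were higher and 7.04% lower. Lhx8, a LIM homeobox factor needed for oocyte survival, read 196, 106 and 110.3 at gd14 and 5229, 6922 and 3593 at gd18 (4.96 ± 0.35, adjusted p = 5.09e-08). Nobox, the newborn ovary homeobox factor, read 16.6, 5.75 and 11.4 and 812, 803 and 477 (4.08 ± 0.51, adjusted p = 3.76e-05), and Sohlh1, a helix-loop-helix factor, 60.5, 89.0 and 85.2 and 1774, 2085 and 928 (3.83 ± 0.30, adjusted p = 2.55e-07). Every gd18 array exceeded every gd14 array several fold in all 3 genes, and gd18 replicate 6 was the lowest gd18 array each time. Figla, which drives the zona pellucida genes, had already reached 403, 273 and 326 at gd14 and rose to 1746, 2361 and 1029 (2.19 ± 0.33, adjusted p = 0.000229). Trp63, the guardian of the oocyte genome, rose from 76.1, 50.2 and 55.8 to 1504, 1247 and 702 (3.63 ± 0.26, adjusted p = 8.17e-08). Foxo3, which holds primordial follicles dormant, rose less, 2340.1 ± 357 at gd14 and 4989.9 ± 793 at gd18 (1.08 ± 0.18, adjusted p = 0.000607). Sohlh2, the partner of Sohlh1, fell from 1371, 2111 and 1899 to 746, 1003 and 678 (-1.12 ± 0.27, adjusted p = 0.0103), a call lost without gd14 replicate 11. Taf4b (-0.61, adjusted p = 0.108) was not called on the probe set that stands for the gene here, while another was called lower (-0.99, adjusted p = 0.0236).

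Genes of the zona pellucida and of oocyte signals were higher in 5 of 9 cases, beside 8.44% of all genes, and lower in none. Kit, the receptor on oocytes for Kit ligand, read 408, 537 and 698 at gd14 and 3113, 3419.7 and 2434 at gd18 (2.40 ± 0.20, adjusted p = 4.03e-07). Zp2, a zona glycoprotein, read 15.6, 22.6 and 33.7 and 538, 401 and 239 (2.89 ± 0.33, adjusted p = 1.39e-05), and Gdf9, an oocyte growth factor, 77.9, 146 and 83.0 and 286, 312 and 199 (1.17 ± 0.27, adjusted p = 0.0075). The groups of these 3 genes did not overlap, although the gd14 signals of Zp2 lay under the median of the array. Bmp6 rose by 1.03 (adjusted p = 0.00904) and Zp3 by 1.02 (adjusted p = 0.036), the latter lost under 11 of 19 alternatives. Zp1 was not called, at 61.4, 5.60 and 36.3 and 73.0, 80.1 and 26.9. The zona genes were far below their level at postnatal day 2, where Zp2 averaged 9456, Zp3 6569 and Zp1 2195. Bmp15 was too dim to be tested.

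Maternal-effect and oocyte cytoplasm genes were higher in 11 of 23 cases, beside 8.44% of all genes, and lower in none, with a median of 0.66. Nlrp5 (Mater), of the subcortical maternal complex, read 24.1, 8.30 and 8.37 at gd14 and 1882, 1799 and 938 at gd18 (5.09 ± 0.32, adjusted p = 1.64e-08). Nlrp4f, of the same family, read 36.6, 71.6 and 7.32 and 3079, 1880.2 and 667 (4.64 ± 0.41, adjusted p = 7.17e-07), a wide range at both stages, and the difference was 5.24 without gd18 replicate 6. Padi6 rose from 28.1, 65.5 and 69.9 to 304, 148 and 154 (1.43 ± 0.31, adjusted p = 0.00447). Btg4 (1.71), of maternal mRNA decay, Tle6 (1.03) and Zbed3 (0.82), of the subcortical complex, and Uchl1 (1.86), an abundant oocyte ubiquitin hydrolase, rose with adjusted p from 0.000666 to 0.00809. Nlrp4b rose by 2.36, and by 1.76 without gd18 replicate 4, its high array. Not called were Nlrp14 (53.7, 75.9 and 55.4 against 202, 97.6 and 71.2), Zar1 (0.12, adjusted p = 0.85) and Khdc3 (0.66, adjusted p = 0.105). Of the 22 genes called higher in the 3 oocyte lists, all had a higher mean at postnatal day 2 than at gd18 and 10 were over 5 times higher there, as were 14 of the 18 not called. Among the 22, gd18 replicate 6 was the lowest gd18 array in 17, and it also had the lowest summed germ cell markers. With any 1 of the 6 arrays left out, the higher counts were 6 among transcription factors, 4 to 5 in the zona list and 10 in the maternal list.

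**Figure D3:**
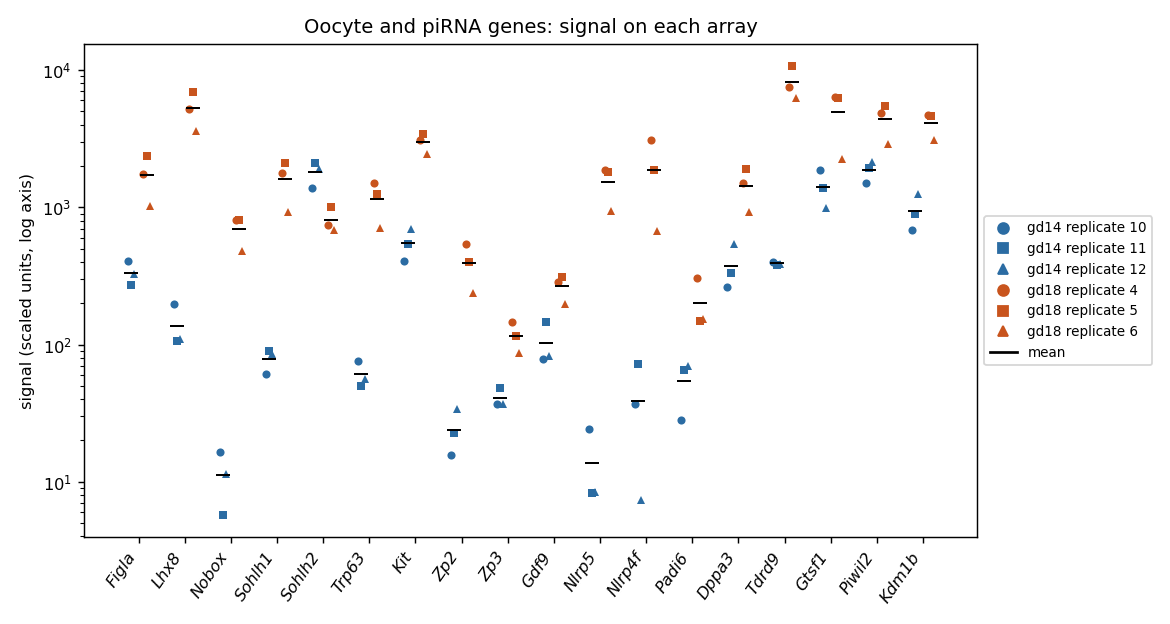
Signal of 18 oocyte and piRNA genes on each of the 6 arrays (log axis; marker shapes are replicates, black lines are means), with gd14 in blue and gd18 in orange. Sohlh2 is the gene whose gd18 arrays lie below gd14, and gd18 replicate 6 (orange triangles) is the lowest gd18 array for most of the others.

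Promoters of 2 oocyte genes that also hold CACGTG are shown, again 250 bases before the start on GRCm38.p6 with the hexamer in capitals. Sohlh1 is a regulator with a large rise and Zp3 a late zona gene with a small one. The promoters of Nlrp5, Lhx8 and Nobox, among others, lack the hexamer.
Sohlh1 (chr2:25847249-25847498, minus strand): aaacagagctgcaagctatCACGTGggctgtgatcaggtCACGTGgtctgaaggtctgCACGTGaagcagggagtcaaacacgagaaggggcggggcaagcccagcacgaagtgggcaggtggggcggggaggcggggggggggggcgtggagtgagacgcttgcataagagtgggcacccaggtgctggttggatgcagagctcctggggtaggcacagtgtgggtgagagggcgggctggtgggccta
Zp3 (chr5:135979855-135980104, plus strand): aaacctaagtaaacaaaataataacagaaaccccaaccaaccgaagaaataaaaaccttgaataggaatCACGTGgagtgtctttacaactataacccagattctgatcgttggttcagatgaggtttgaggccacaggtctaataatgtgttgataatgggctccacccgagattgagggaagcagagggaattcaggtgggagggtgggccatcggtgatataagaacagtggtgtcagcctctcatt
Sohlh1 held the hexamer at 231, 211 and 192 bases before its start and Zp3 at 181. Of 17 higher oocyte genes with a promoter in the table, 4 held it (23.5%), and of 11 not called, none did. TAATTA or TAATTG was in 1 of the 17 (5.9%) and in 3 of the 11 (27.3%), beside 6.3% of all genes tested.

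**Figure D4:**
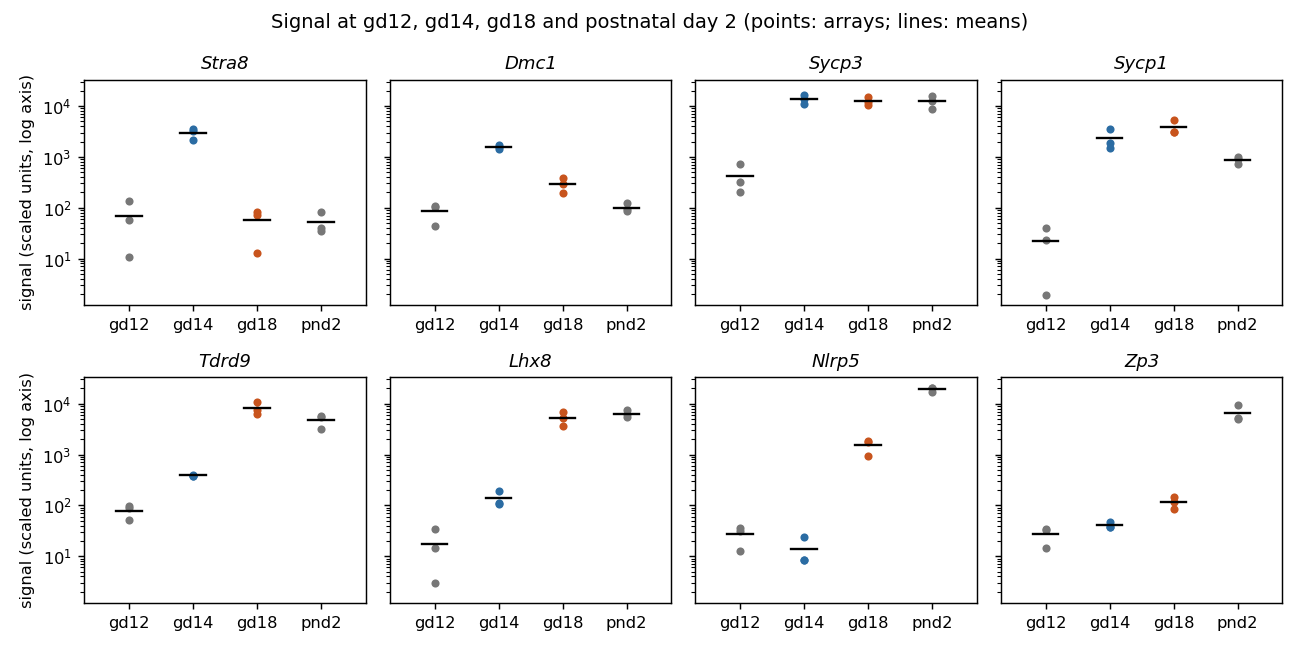
Signal of 8 genes on the 3 arrays of gd12, gd14, gd18 and postnatal day 2 (log axis; points are arrays, lines are means). Stra8 and Dmc1 are high at gd14, Sycp3 stays high from gd14 on, and Lhx8 and Nlrp5 are low at gd14 and high at gd18, with Zp3 highest at postnatal day 2.

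In the lists of DNA methylation, damage checkpoint and Bcl2 family genes, 1 of 10, 3 of 15 and 2 of 12 genes were called, beside 15.5% of all genes. Kdm1b, the histone demethylase needed for maternal imprints, read 682, 898 and 1249.9 at gd14 and 4717, 4627 and 3091 at gd18 (2.12 ± 0.24, adjusted p = 1.39e-05) and was the 1 call among 10 tested genes of DNA methylation and its control. Dnmt3a (0.15, adjusted p = 0.481) and Dnmt1 (-0.42, adjusted p = 0.13) were not called. A dimmer probe set of Dnmt3a, which does not stand for the gene here, was called higher (0.62, adjusted p = 0.0456). Of 15 damage checkpoint genes Trp63 was higher, while the kinases Atm (4646 ± 726 at gd14 and 1646 ± 216 at gd18; -1.47 ± 0.22, adjusted p = 0.000226) and Atr (-0.84, adjusted p = 0.0107) were lower, the latter call lost without gd14 replicate 10 or gd18 replicate 6. Chek2, which acts on Trp63 in oocytes, was not called (-0.36, adjusted p = 0.121). In the Bcl2 family, 2 of 12 were higher: Bcl2l10, an oocyte member (1.56, adjusted p = 0.0125, lost without gd18 replicate 4), and the survival factor Mcl1, from 3518, 3811 and 3446 to 5475, 5267 and 5506 (0.59 ± 0.11, adjusted p = 0.00184). Of the 6 probe sets of Mcl1, 3 were called higher and 3 were not called, among them a pair with differences of -0.35 and -0.27. The call was lost on the mean of all its probe sets (0.25, adjusted p = 0.062). Bcl2 itself was not called on its brighter probe sets (0.51 and 0.45, adjusted p = 0.18 and 0.232). Dimmer ones were called higher (0.72 and 0.72, adjusted p = 0.0103 and 0.0301), and another dim one was not called (0.25).

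Bzw2, which acts in the control of translation initiation, showed the largest rise of any gene, on 1 of its 3 probe sets. That probe set read 1656, 394 and 448 at gd14 and 39003, 33294 and 27475 at gd18 (5.56 ± 0.38, adjusted p = 4.1e-08), with gd14 replicate 10 the high array of its stage, and the difference was 6.19 without it. The other probe sets of Bzw2 differed by -0.04 and 0.12 and were not called. Further large rises were those of Cnpy1 (4.70, on 3 of 3 probe sets), the cyclin Ccno (4.40), the complement regulator Cd55 (3.60, 3 of 3 probe sets), the collagen gene Col8a1 (3.41), the PRAME family gene Pramel13 (3.38), the pigment cell receptor Gpr143 (3.32) and the synaptotagmin Syt16 (3.31). Ccno read 7.20, 37.4 and 33.2 and 1538, 1392 and 681, and Cd55 85.4, 164 and 160.1 and 2076, 1950.1 and 1807, with gd18 far above gd14 on each array. The largest falls outside the lists were those of M1ap, a meiosis gene (2157, 1704 and 1313 at gd14 and 45.6, 166 and 84.8 at gd18; -3.84 ± 0.36, adjusted p = 1.78e-06), Phyhipl (-3.51), the galactolipid enzyme Ugt8a (-3.19), Tesmin (-3.18), the glycine decarboxylase Gldc (-3.11), Atf7ip2 (-2.96, 3 of 3 probe sets) and the tubulin-binding Tppp (-2.91).

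DNA replication genes were lower in 21 of 29 tested cases and higher in none, the largest count of falls in a list. Beside this, 7.04% of all genes were lower and 8.44% higher. The helicase subunit Mcm5 read 10486, 10824 and 10060.1 at gd14 and 6088, 6096 and 5315 at gd18 (-0.84 ± 0.12, adjusted p = 9.54e-05), and Mcm7 read 12769.5, 12124 and 11172 and 7187, 5832 and 6416 on its brightest probe set, 1 of 4 that were all lower (-0.89 ± 0.11, adjusted p = 4.51e-05). Pcna, the sliding clamp, read 8118, 9165 and 8237 and 5888, 5997 and 5623 (-0.54 ± 0.10, adjusted p = 0.000966). The falls were moderate, with a median of -0.67 over the list. The stages did not overlap in 23 of 29 genes, beside 36.4% of all genes. Polymerase epsilon (Pole, -1.50), the origin factors Orc1 (-1.31) and Cdc6 (-1.25), the helicase parts Gins3 (-1.40) and Cdc45 (-1.22), the primase subunit Prim1 (-1.17) and the nucleotide enzymes Tk1 (-1.18) and Rrm2 (-1.05) fell most, with adjusted p up to 0.00117. Fen1 (-0.33, adjusted p = 0.347), Cdt1 (-0.33, adjusted p = 0.18) and Rfc3 (-0.01, adjusted p = 0.986) were not called. The count ran from 17 to 19 with any 1 of the 6 arrays left out, and 19 of the 21 genes had a higher mean at postnatal day 2 than at gd18.

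Mitotic genes were lower in 11 of 29 cases and higher in none, beside 7.04% and 8.44% of all genes. Top2a, the topoisomerase of dividing cells, read 5862, 6411 and 6627 at gd14 and 2515, 1794 and 2259 at gd18 (-1.52 ± 0.13, adjusted p = 7.9e-07), and the checkpoint kinase Bub1 8035, 6097 and 7001 and 2645, 3259 and 2285 (-1.36 ± 0.17, adjusted p = 3.85e-05). Cenpa, the centromere histone (-1.29), Cdc20 (-0.62) of the anaphase complex, Bub1b (-0.76) and the proliferation marker Mki67 (-0.50) fell less, with adjusted p up to 0.0214. Cdk1, at 2911, 2451 and 1552 and 2807, 2517 and 1955, overlapped between stages (0.10, adjusted p = 0.793), as did Ccnb2 (-0.14), Ccna2 (-0.14), Aurka (-0.29) and Birc5 (-0.04), with adjusted p from 0.519 to 0.933. The count was 7 without gd18 replicate 6. Prc1, also of this list, was not called, but a dimmer probe set of it was called higher (0.52, adjusted p = 0.0291). Among 12 tested genes of the dictyate arrest and its release, the phosphatase gene Cdc25a was lower (-0.60, adjusted p = 0.0223) and the cyclin gene Ccnb3 higher (1.45, adjusted p = 0.0231), calls lost under 4 of 19 and 6 of 19 alternatives. Ccnb3 overlapped between stages, since gd14 replicate 10 (802.5) lay above gd18 replicate 4 (685.7). Wee2, the oocyte kinase that holds the arrest, was not called (0.92, adjusted p = 0.051).

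**Figure D5:**
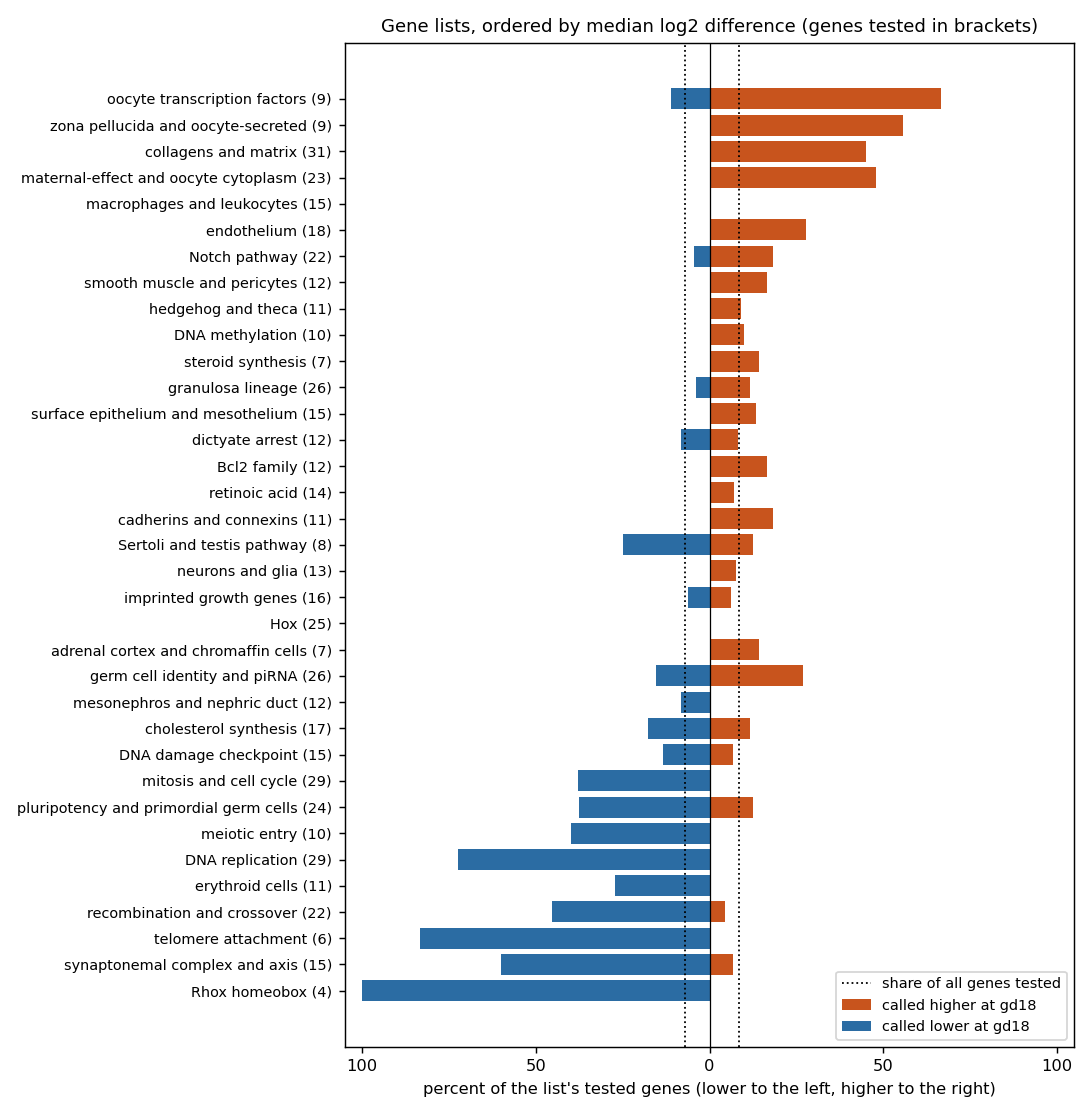
Percent of the tested genes of each of 35 lists that were called higher (orange, to the right) or lower (blue, to the left) at gd18, ordered by median log2 difference, with the shares of all genes tested (8.44% and 7.04%) as dotted lines. Rhox, meiotic, replication and pluripotency lists lie at the lower end and oocyte and matrix lists at the upper end.

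Somatic genes of the granulosa lineage changed little as a list, 3 of 26 higher and 1 lower with a median of 0.16. These counts were near the shares of all genes, 8.44% higher and 7.04% lower. Foxl2, the factor that keeps granulosa cells female, read 1309.8, 1325 and 921 at gd14 and 2457, 2275 and 2390.03 at gd18, separate groups with an adjusted p of 0.00669. Nr5a2, a nuclear receptor of follicles, rose from 187, 191 and 133 to 493, 354 and 690.1 (1.40 ± 0.25, adjusted p = 0.00115), and the inhibin subunit Inha from 659.8, 811 and 876 to 1639, 1184 and 1722 (0.92 ± 0.19, adjusted p = 0.00316). Lhx9, a factor of the early gonad, fell from 5382, 3485 and 4952 to 1426, 1867 and 2086 (-1.34 ± 0.20, adjusted p = 0.000206). Kit ligand (Kitl, -0.46, adjusted p = 0.12), Wnt4 (-0.10, adjusted p = 0.791), Fst (-0.79, adjusted p = 0.102) and Wt1 (0.41, adjusted p = 0.175) were not called. Among 8 genes of the Sertoli and testis pathway, Dmrt1, which in the fetal ovary is a germ cell gene, fell (577 ± 244 at gd14 and 81.5 ± 16.6 at gd18; -2.35 ± 0.34, adjusted p = 0.00016), Cbln4 fell by 1.04 (adjusted p = 0.0234; lost under 4 of 19 alternatives) and Gstm6 rose (1.75, adjusted p = 0.000981), while Sox9 was not called (-0.27). The lower count of that list was 1 without gd14 replicate 11, gd14 replicate 12 or gd18 replicate 6.

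In the Notch pathway, which acts between oocytes and pregranulosa cells as nests break down, 4 of 22 genes were higher and 1 lower. The counts of this pathway and of the hedgehog and steroid genes stand beside 8.44% of all genes higher and 7.04% lower. The ligand Jag2 read 196, 431 and 295 at gd14 and 848, 1032 and 676 at gd18 (1.42 ± 0.30, adjusted p = 0.0036), and the target Hes1 558, 611 and 703 and 1182, 1466 and 1636 (1.15 ± 0.18, adjusted p = 0.000351). The ligase Dtx1 rose by 1.09 ± 0.15 (adjusted p = 7.31e-05). The receptors Notch1 (0.79, adjusted p = 0.0575) and Notch2 (0.33, adjusted p = 0.172) and the ligand Jag1 (0.72, adjusted p = 0.173) stood apart between stages and were not called. Rfng (0.66) and Numb (-0.53) were called with adjusted p of 0.0328 and 0.0348, and each lost the call under 9 of 19 alternatives. Of 11 hedgehog and theca genes Ptch1, the hedgehog receptor, was higher (0.52, adjusted p = 0.0278; lost under 7 of 19), and of 7 steroid genes Hsd3b1 was (294, 218 and 209.6 and 449, 564 and 475; 0.96 ± 0.27, adjusted p = 0.0214; lost under 4 of 19). Star (-0.37) and Cyp17a1 (-0.17) were not called.

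Extracellular matrix genes were higher in 14 of 31 cases, beside 8.44% of all genes, and lower in none, with a median of 0.70. Lama2, a laminin chain of basement membranes, read 328, 304 and 284 at gd14 and 1205, 678 and 1304 at gd18 (1.65 ± 0.25, adjusted p = 0.000237). Col6a1 read 2069.8, 3223 and 2495 and 6440.3, 4217 and 7489 (1.19 ± 0.21, adjusted p = 0.00108), and Col4a1, the main basement membrane collagen, 3042, 5358 and 4307 and 8029, 6706 and 9177 (0.93 ± 0.20, adjusted p = 0.00447). The groups of all 3 were separate, with gd18 replicate 5 the lowest gd18 array in each, as it was in 13 of the 14. Col6a2 (1.16), Col4a2 (1.01), Lamc1 (0.96), Lamb1 (0.80), the nidogen Nid1 (0.81) and elastin (Eln, 0.98) rose with adjusted p from 0.00476 to 0.0183. The fibrillar collagens Col1a1 (0.21, adjusted p = 0.735) and Col3a1 (0.48, adjusted p = 0.0552) overlapped between stages. The count was 9 without gd14 replicate 10, 8 without gd14 replicate 12, 9 without gd18 replicate 4 and 7 without gd18 replicate 6.

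The number of vessel genes called changed with single arrays. The counts of this paragraph stand beside 8.44% of all genes called higher. Of 18 endothelial genes 5 were higher: Ramp2 (529.6, 707 and 570.2 and 1044, 914 and 1267; 0.80 ± 0.17, adjusted p = 0.00446), Robo4 (0.64), Esam (0.76), Sox17 (1.26) and Sox18 (0.99), the last 4 lost under 8 of 19, 11 of 19, 5 of 19 and 13 of 19 alternatives. Sox17 and Sox18 overlapped between stages, gd14 replicate 11 being their high gd14 array. Pecam1 (-0.24, adjusted p = 0.798), Kdr (0.15, adjusted p = 0.701) and Cdh5 (0.52, adjusted p = 0.165) were not called. The endothelial count was 2 without gd14 replicate 10, 1 without gd14 replicate 12, 2 without gd18 replicate 4, 3 without gd18 replicate 5 and 2 without gd18 replicate 6. The count was 1 in a limma fit to the 6 arrays only and 2 under median scaling. Of 15 macrophage and leukocyte genes none was called by limma, with a median of 0.61, and 3 were called without gd14 replicate 11. At an unadjusted limma p under 0.05 there were 8, all higher. The 8.44% above is at the adjusted threshold, and the share of all genes at the unadjusted one was not counted here. A dimmer probe set of the macrophage receptor gene Csf1r, which does not stand for the gene here, was called higher (0.99, adjusted p = 0.019). Their summed signal was 3036 to 5287 at gd14 and 5390 to 6956 at gd18, so the ranges did not overlap, and the part of these cells in the matrix result was not tested. The pericyte gene Rgs5 (1.19, adjusted p = 0.00741, 1 of 4 probe sets) and the kinase Mylk (1.13, adjusted p = 0.0155) were the 2 higher genes of 12 in smooth muscle and pericytes. The call of Mylk was lost without gd14 replicate 12 or gd18 replicate 4, and that of Rgs5 on the mean of its probe sets (0.59, adjusted p = 0.187).

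Embryonic haemoglobins were lower in all 3 cases named here, and Hbb-y gave the largest fall of any named gene. They were the calls among 11 tested erythroid genes, beside 7.04% of all genes called lower. Hbb-y, of primitive red cells, read 32142, 34331 and 31771 at gd14 and 193, 475 and 231 at gd18 (-6.72 ± 0.26, adjusted p = 6.37e-12), on all 3 of its probe sets. Hba-x read 389.6, 348 and 530.4 and 28.6, 6.20 and 8.67 (-3.33 ± 0.28, adjusted p = 4.51e-07), and Hbb-bh1 fell by 2.21 (adjusted p = 0.000429). The other 8 tested erythroid genes were not called, among them the heme enzyme Alas2 (0.55, adjusted p = 0.517), highest on gd18 replicate 5, and Gata1 (0.67, adjusted p = 0.066).

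Among markers of neighbouring tissue and of the surface epithelium, calls rested in part on dim signals. Their counts stand beside 8.44% of all genes called higher and 7.04% lower. Of 12 genes of the mesonephros and nephric duct, Foxd1 was lower, at 72.5, 81.0 and 42.4 and 3.41, 6.48 and 1.32 (-1.45 ± 0.33, adjusted p = 0.00686), all under the median of the array, and the call was lost with a pseudocount at the median of all values (-0.59, adjusted p = 0.139). Cdh16 read 161, 677 and 25.9 and 876, 86.1 and 99.0, high on gd14 replicate 11 and gd18 replicate 4 and low on the other arrays. Of 13 neuronal and glial genes Uchl1 was higher, which oocytes also express. Of 7 adrenal genes Th, the first enzyme of catecholamine synthesis, was higher, at 25.2, 40.9 and 49.4 and 487, 300.3 and 200.04 (2.31 ± 0.56, adjusted p = 0.00961), a call lost without gd18 replicate 4. Dbh, a later enzyme of that synthesis (0.01, adjusted p = 0.996), and Chga (-0.35, adjusted p = 0.726) were not called. Of 15 genes of the surface epithelium Cdh1 (100.2, 119 and 119 and 369, 266 and 199; 1.07 ± 0.21, adjusted p = 0.0027) and Msln (1.65, adjusted p = 0.0229, lost under 4 of 19) were higher, a count of 1 without gd14 replicate 11, gd18 replicate 4 or gd18 replicate 6, and the keratins Krt8 (0.12) and Krt18 (0.09) were not called.

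The remaining lists are set beside the 15.5% of all genes called. None of 25 tested Hox genes was called by limma, none had an unadjusted p under 0.05, and the median was -0.04. Of 16 imprinted growth genes, Phlda2, a growth restrainer, fell from 137, 313 and 397 to 15.2, 5.02 and 14.0 (-2.79 ± 0.34, adjusted p = 3.09e-05), Zdbf2 was higher (adjusted p = 0.0326, lost under 8 of 19), and Igf2 (-0.16), Peg3 (-0.01) and Cdkn1c (-0.33) were not called. Of 14 retinoic acid genes Aldh1a1, which makes retinoic acid, was higher (0.68, adjusted p = 0.0442, lost under 11 of 19), and neither Aldh1a2 (-0.25) nor the degrading enzyme Cyp26b1 (0.27) was called. In cholesterol synthesis, 3 of 17 genes were lower and 2 higher: Idi1 fell from 2309, 2709 and 3485 to 723, 542 and 653 (-2.08 ± 0.25, adjusted p = 2.92e-05), while Fdft1 (0.79, adjusted p = 0.00493) and the regulator Insig1 (0.83, adjusted p = 0.000889) rose. The other lower genes, Fdps and Sqle, had adjusted p of 0.0469 and 0.0497, and the lower count was 1 without any of gd14 replicates 10, 11 and 12 or gd18 replicates 5 and 6. Of 11 cadherin and connexin genes, Cdh1 and the oocyte connexin Gja4 (0.95, adjusted p = 0.0268, lost under 4 of 19) were higher, and Gja1 (0.07, adjusted p = 0.837) was not called.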

How the data were processed

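The values are those of the series' deposited table, linear signal intensities per probe set, computed by the authors in GCOS, as the submitters' processing notes name it, with version and settings not given in the sources used here. Each array's 2% trimmed mean of intensity was 500.00 in the deposited table, so arrays had been scaled to a common mean. Here 31 was added to each signal before log2, and probe sets were tested where at least 1 of 6 stages had a mean above 116.05, the median of all values (26431 probe sets). A fit with 1 term per stage over 18 ovary arrays (limma 3.58.1, R 4.3.3, mean-variance trend, 12 residual degrees of freedom) gave gd18 minus gd14, with Benjamini-Hochberg adjustment over all probe sets tested. Of these, 3383 (12.8%) were called, 1742 higher (6.59%) and 1641 lower (6.21%). A gene is the tested probe set with the highest mean among those annotated to it alone. Genes named are the 15 largest rises and falls with non-overlapping groups, up to 8 called each way and 3 not called per list, and a fixed panel; probe sets annotated to several genes were left out. The members and lists were chosen with earlier results of these data known. Promoters came from a RefSeq table (GRCm38.p6), 1 start per gene. The fitting code was tested on simulated data in which 200 of the 26431 probe sets were changed. It called 56% of the 2-fold and 93% of the 4-fold changes, with 9 false calls. A smaller share of probe sets was changed there than the 12.8% called in the data. The shares recovered therefore need not hold for these data. A gene not called can still differ by about 2-fold. The number of arrays limits the precision, and 5 of the panel genes were too dim to test. P-values set the difference between the stages against the spread within stages, estimated over all 18 ovary arrays. Where gd14 samples were pools, their spread is not that between single animals. Tables and figures used Python 3.11.15 with pandas 2.3.3 and matplotlib 3.10.9.

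The alternatives tried were another pseudocount (8, or the median of all values), quantile normalization, median scaling, no filter or one at 507.26, fits to the 6 arrays or without gd16, gd11 samples 18 and 19 averaged, no trend, array weights, an added 2-fold threshold, each gene as the mean over its tested probe sets, and each of the 6 arrays left out in turn.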

Additional observations from a re-analysis of the deposited data

How the results depend on the processing

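Of 261 named genes, 154 were called, and 100 of these kept the call and direction under every one of the 19 alternatives; 54 lost the call under at least 1, and none of the 261 changed sign while called. With any of the 6 arrays left out, the genes called ranged from 1271 to 1442 (642 to 804 higher, 629 to 708 lower) and the probe sets from 2216 to 2468 (1110 to 1297 higher, 1106 to 1271 lower). Without gd14 replicate 12, 1271 genes were called. With the 2-fold threshold added, 692 genes (420 higher, 272 lower) and 1171 probe sets (673 higher, 498 lower) were called; this count is smaller by construction. All other alternatives left these counts within 1.5 times their main value. Median scaling moved the median of all genes from 0.06 to -0.04 and the share of higher genes among calls from 54.5% to 37.5%. Array weights gave 2659 called genes and a filter at the 75th percentile 1765. No paired analysis was possible, since the design text gives every animal here a different dam. Replicate numbers run on through the series and mark no pairs. The precision is limited by 3 arrays a stage. Probe sets of the same gene were called in opposite directions in 5 of 5641 genes with several tested, none of them named.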

Other observations

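The genes below are in none of the lists and were chosen after their values were seen. Esrp1, an epithelial splicing regulator, had a signal of 359.6 ± 24.1 at gd14 and 3197 ± 1086 at gd18 (SD, n = 3), a log2 difference of 2.99 by limma (adjusted p = 5.59e-06), higher on 3 of 3 gd18 arrays. Prdm16, a transcriptional regulator, rose by 3.23 (adjusted p = 2.55e-07), on 3 of 4 probe sets, and Tcl1, an Akt coactivator, by 2.69 (adjusted p = 2.01e-06). In the other direction, Hmga2, a chromatin protein of proliferating fetal cells, went from 5162 ± 1322 to 788.1 ± 158.4, a difference of -2.65 (adjusted p = 5.47e-08), on 3 of 4 probe sets. The cohesin acetyltransferase Esco2 differed by -2.17 (adjusted p = 3.35e-05), the cyclin Ccne2 by -1.47 (adjusted p = 0.000113), and the germ cell genes Ddx43 and Dmrtc2 by -2.63 and -2.52 (adjusted p = 1.41e-06 and 0.000577). H2-K1, a class I histocompatibility gene, read 2688 ± 312 at gd14 and 755.8 ± 57.5 at gd18, a difference of -1.79 (adjusted p = 0.00024).

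The 5 striated muscle genes below were also picked after their values were seen, and all were called lower, beside 7.04% of all genes. No list of striated muscle genes was fixed, so the share of such genes called lower is not known. Acta1 read 177.8 ± 30.7 and 49.3 ± 29.2 (SD, n = 3; -1.45, limma adjusted p = 0.00402), and Myh8 read 423.4 ± 167.6 and 124.2 ± 5.28 (-1.48, adjusted p = 0.00673). Myl7 (-1.49, adjusted p = 0.00962), Myh3 (-1.70, adjusted p = 0.0256) and Actc1 (-1.54, adjusted p = 0.047) were the others. Among somatic rises, the anion transporter Slc26a7 rose by 2.41 (adjusted p = 7.97e-05) on 1 of 2 probe sets, Itih5 by 2.33 (adjusted p = 2.53e-06) on 3 of 3, and Igfbp7, an insulin-like growth factor binding protein, by 2.09 (adjusted p = 8.26e-05).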
